A study of Mus musculus with 6 samples.

Results

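The genes described here code for the subunits of 2 families of glutamate receptors, 5 of NMDA receptors (*Grin1*, *Grin2a*, *Grin2b*, *Grin2c* and *Grin3a*) and 4 of kainate receptors (*Grik1*, *Grik2*, *Grik3* and *Grik4*). They were chosen by name, and all 9 were found among the 32286 genes counted. Single nuclei of the whole cerebellum were sequenced from 3 *Pcp2-ATXN1[82Q]* mice (SCA1) and 3 wild-type littermates (WT, labelled C57Bl6), all 12 weeks old, with 1 library for each mouse. The methods describe the transgenic line as backcrossed to C57BL/6. The transgene is a human *ATXN1* whose CAG repeat is expanded, and the *Pcp2* promoter drives it in Purkinje cells (PCs), while the WT mice carry none. The 6 libraries held 45473 nuclei, and the UMIs (unique molecular identifiers, 1 for each captured transcript) of each gene were summed per mouse over all nuclei with the same cell type label. Levels are counts per 1000000 UMIs of such a sum (CPM), given as mean ± SD over n = 6 mice, or over n = 3 mice of a genotype.

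NMDA receptors are assembled from the GluN1 subunit, the product of *Grin1*, together with GluN2 subunits, and they let calcium in when glutamate arrives at a depolarized membrane. The GluN2 subunits bind glutamate and set how fast the channel closes and how strongly magnesium blocks it, and GluN3A, the product of *Grin3a*, makes channels that pass less calcium. Kainate receptors are built from GluK1, GluK2 and GluK3, the products of *Grik1* to *Grik3*, and GluK4, the product of *Grik4*, needs one of these as a partner. In the cerebellum, granule neurons take up mossy fiber input through receptors that include GluN2A and GluN2C, while adult PCs are known for small NMDA currents.

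Of the labels given by the authors, 13 had at least 10 nuclei in every mouse and were compared, and they held 45042 nuclei. Most labels carried their own markers. *Gabra6*, a gene of granule neurons, was at 737 CPM in granule neurons, *Car8* marked PCs, *Gdf10* was at 122 CPM in the *Slc1a3* astrocyte label (Bergmann glia, BG) and 10.1 CPM in the *Htra1* label (velate astrocytes, VA), and *Mog* was at 730 CPM in oligodendrocytes (OL). The Slc17a6-Sln label carried *Eomes* and *Lmx1a*, genes of unipolar brush cells, and the Lgi2 label carried *Lgi2* and *Slc6a5*, genes of Golgi cells. Among the labels named for *Pvalb*, *Sorcs3* was at 2036 CPM in Pvalb-Nefh and 1723 CPM in Pvalb-Rab3b, and *Nxph1* was at 4605 CPM in Pvalb-Cadm1 and 2604 CPM in Pvalb-Chrm2, which are genes of molecular layer interneurons. The Dcn-Nnat label is an endothelial one by name, but *Cldn5* was at 1.88 CPM there and *Dcn* at 374 CPM, so that it is called Dcn-Nnat here. Of the nuclei labelled Pvalb-Rab3b, Pvalb-Chrm2 and Lgi2, 0 of 458, 38 of 263 and 115 of 240 lay in a cluster where that label was the most frequent one. Between 18916647 and 98366627 UMIs were counted per library, 254 barcodes occurred in more than 1 library, and the PC label had 29 to 76 nuclei per mouse. Human *ATXN1* had 12, 15 and 19 UMIs in the PC nuclei of SCA1 mice 1, 2 and 3 and 0 in those of each WT mouse.

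In droplet data, RNA that is free in the suspension is counted in nuclei that did not make it. *Gabra6* was at 32.0 CPM in PCs, 4.35% of its level in granule neurons, and at 18.4% and 18.1% in VA and OL. *Cbln3*, also a granule neuron gene, was at 11.3% in PCs and 46.9% in VA. The granule neuron level of each subunit times such a percentage, taken mouse by mouse, is given below as its *Gabra6*-scaled or *Cbln3*-scaled level, and a subunit at or under both levels is read as background. *Cbln3* gave the higher of these levels, and which of them is nearer to the free RNA was not tested. They say nothing of free RNA from other cells, and are low for subunits that granule neurons hardly carry (*Grin2b*, *Grin3a*, *Grik1*, *Grik3* and *Grik4*). In sums like these, fewer expressing nuclei and less RNA per nucleus cannot be told apart.

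**Figure D1:**
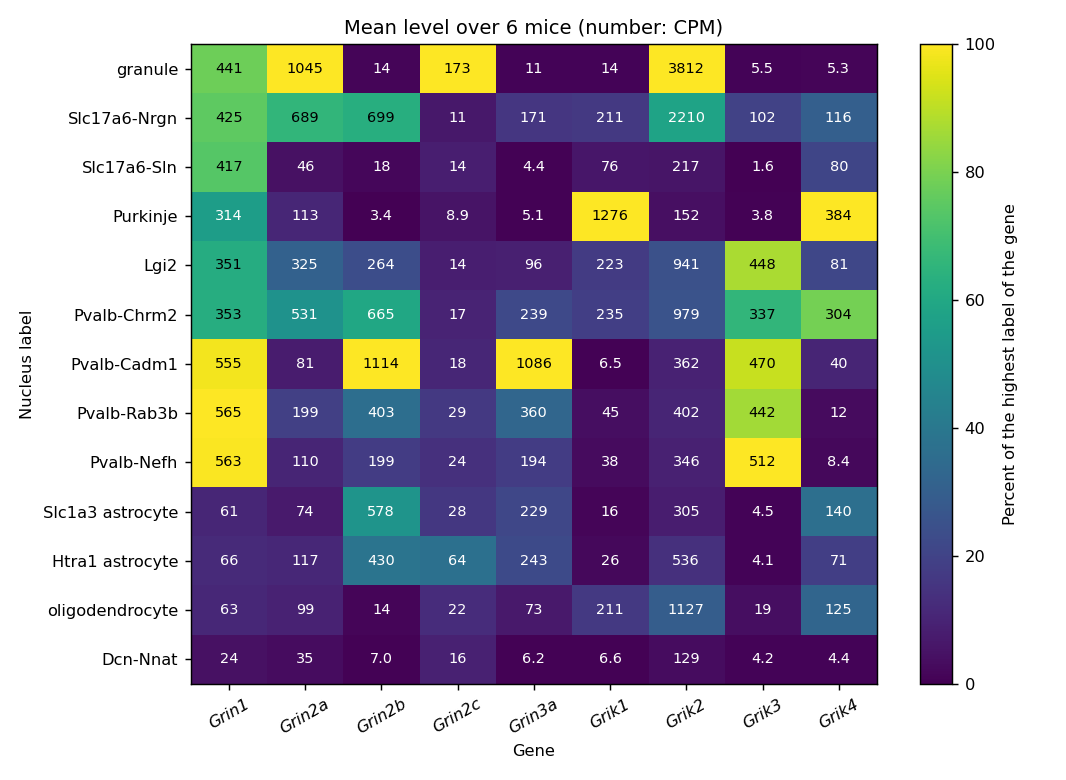
Mean CPM over 6 mice of each subunit gene (columns) in each nucleus label (rows), where the color gives the percent of the highest label of that gene. *Grik1* stands out in PCs at 1276 CPM, *Grin2a*, *Grin2c* and *Grik2* in granule neurons, and *Grin2b* and *Grin3a* in Pvalb-Cadm1 nuclei.

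*Grin1* (ENSMUSG00000026959, chr2:25291181-25319187 of GRCm38, reverse strand), the subunit that every NMDA receptor needs, was found in all 9 neuronal labels and was low in the others. It ranged from 314 ± 54.9 CPM in PCs to 565 ± 43.4 CPM in Pvalb-Rab3b nuclei, and neighbors in this order overlapped between mice. With TMM factors over all sums in place of CPM, PCs were at 453 and above 4 other neuronal labels, of which Pvalb-Chrm2 was the lowest at 342, so that the place of PCs among the neurons depends on the scaling. In PCs it was at 395, 344 and 298 CPM in SCA1 mice 1, 2 and 3 and at 334, 245 and 268 CPM in WT mice 1, 2 and 3. The lowest PC value lay above the highest of VA, the next label down, which had 66.4 ± 32.1 CPM. In BG, VA, OL and Dcn-Nnat nuclei *Grin1* was under its *Cbln3*-scaled level in all 6 mice, and it was above its *Gabra6*-scaled level in 2 mice in BG, 1 in Dcn-Nnat nuclei and 0 in VA and OL.

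*Grin2a* (ENSMUSG00000059003, chr16:9567898-9995560, reverse strand) was highest in granule neurons. It was at 851, 823 and 1342 CPM in the SCA1 mice and 774, 1078 and 1403 CPM in the WT mice, against 689 ± 21.3 CPM in Slc17a6-Nrgn nuclei, the next label. The lowest mouse in granule neurons was above the highest in Slc17a6-Nrgn. Pvalb-Chrm2 nuclei had 531 ± 196 CPM and Lgi2 nuclei 325 ± 82.2 CPM, over both scaled levels in 6 of 6 mice. PCs had 113 ± 75.8 CPM, over the *Gabra6*-scaled level in 6 mice and over the *Cbln3*-scaled level in 4. In Pvalb-Nefh nuclei, astrocytes and OL it was under the *Gabra6*-scaled level in every mouse.

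*Grin2c* (ENSMUSG00000020734, chr11:115249169-115267243, reverse strand), whose product gives channels with weak magnesium block, was likewise highest in granule neurons, with 173 ± 21.5 CPM and every mouse between 152 and 200 CPM. VA came next with 63.6 ± 17.5 CPM, apart from granule neurons in every mouse. VA were over the *Gabra6*-scaled level in 6 of 6 mice but over the *Cbln3*-scaled level in 2 of 6. In PCs *Grin2c* was at 8.86 ± 8.16 CPM, against a *Gabra6*-scaled level of 8.67 CPM and a *Cbln3*-scaled level of 18.3 CPM, with 4 and 0 of 6 mice above them, so that expression over the higher of these levels was not detectable.

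*Grin2b* (ENSMUSG00000030209, chr6:135713233-136173511, reverse strand) was low in granule neurons, where *Grin2a* and *Grin2c* were highest. It was highest in Pvalb-Cadm1 nuclei, at 1114 ± 114 CPM and between 1016 and 1326 CPM in each mouse. Slc17a6-Nrgn and Pvalb-Chrm2 nuclei, which also carried *Grin2a*, came next with 699 and 665 CPM. *Grin2b* was at 14.2 ± 7.57 CPM in granule neurons and 3.42 ± 5.29 CPM in PCs, where 2 of the 6 mice had none among their PC nuclei. Both astrocyte labels carried it: BG had 578 ± 183 CPM and VA 430 ± 94.8 CPM. The BG and VA ranges overlapped, but BG was higher in 6 of 6 mice.

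*Grin3a* (ENSMUSG00000039579, chr4:49661611-49845744, reverse strand) was also highest in Pvalb-Cadm1 nuclei, at 656, 1041 and 1612 CPM in the SCA1 mice and 949, 876 and 1383 CPM in the WT mice. Pvalb-Rab3b nuclei came next with 360 ± 63.7 CPM and did not overlap. VA and BG had 242.6 ± 24.05 and 229 ± 36.0 CPM. Across the 13 labels, mean log2(CPM + 1) of *Grin3a* and *Grin2b* had a Pearson's r of 0.92, which describes labels of the same 6 libraries. Unipolar brush cell type nuclei (Slc17a6-Sln) had 417 ± 84.4 CPM of *Grin1*, 46.3 ± 33.9 CPM of *Grin2a*, 17.5 ± 16.6 CPM of *Grin2b* and 4.39 ± 5.06 CPM of *Grin3a*. *Grin2a* was under its *Cbln3*-scaled level in all 6 mice in these nuclei, of which the mouse with the fewest had 11.

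Among kainate receptor genes, *Grik1* (ENSMUSG00000022935, chr16:87895900-88290265, reverse strand) was the one most set to PCs. It was at 1005, 1197 and 1532 CPM in SCA1 mice 1, 2 and 3 and at 1084, 1259 and 1579 CPM in WT mice 1, 2 and 3. The next label, Pvalb-Chrm2, had 235 ± 140 CPM and did not overlap with PCs. At least 1 *Grik1* UMI was found in 82.8% to 100% of the PC nuclei of a mouse, and in 61.3% on average after each nucleus was thinned to 1000 UMIs, against 1.24% of granule neurons (5.46% before thinning). The median depth was 36466.5 UMIs in PCs and 5923 UMIs in granule neurons.

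*Grik4* (ENSMUSG00000032017, chr9:42518135-42944493, reverse strand) was highest in PCs too, at 348, 272 and 438 CPM in the SCA1 mice and 411, 366 and 467 CPM in the WT mice. Pvalb-Chrm2 nuclei had 304 ± 84.9 CPM, below PCs in 6 of 6 mice although the ranges overlapped. BG followed with 140 ± 31.8 CPM and were above OL, with 125 ± 30.8 CPM, in 6 of 6 mice. *Grik4* was at 5.34 ± 3.46 CPM in granule neurons, so that scaled levels from granule neurons do not bear on it.

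*Grik2* (ENSMUSG00000056073, chr10:49094833-49788766, reverse strand) was highest in granule neurons, at 3812 ± 837 CPM, with 2979 CPM in the lowest mouse and 4890 CPM in the highest. After thinning to 1000 UMIs, 94.4% of granule neurons had a UMI of it, and 99.4% before thinning. Slc17a6-Nrgn nuclei had 2210 ± 722 CPM, below granule neurons in 6 of 6 mice. In PCs it was at 152 ± 88.2 CPM, against a *Gabra6*-scaled level of 164 CPM and a *Cbln3*-scaled level of 360 CPM, with 4 and 0 of 6 mice above them, so that expression over the higher of these levels was not detectable. Pvalb-Nefh nuclei and BG were under both scaled levels in all 6 mice. VA had 536 CPM, over the *Gabra6*-scaled level in 3 of 6 mice and over the *Cbln3*-scaled level in 0.

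*Grik3* (ENSMUSG00000001985, chr4:125490700-125714173, forward strand) was found in GABAergic interneurons. The 5 interneuron labels had means from 337 CPM in Pvalb-Chrm2 to 512 CPM in Pvalb-Nefh, with overlap between neighbors. Slc17a6-Nrgn nuclei had 102 ± 56.0 CPM and OL 19.3 ± 5.91 CPM. Granule neurons, PCs, BG and VA had between 3.78 and 5.46 CPM on average.

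Shares were taken among the UMIs of *Grin2a*, *Grin2b* and *Grin2c* (*Grin2* UMIs) or of *Grik1* to *Grik4* (*Grik* UMIs), leaving out *Grin2d* and *Grik5*. Such a share cancels the depth of the sum but not the length of the genes. Granule neurons had 84.0 ± 5.03% *Grin2a* and 14.7 ± 4.23% *Grin2c* among *Grin2* UMIs, while Pvalb-Cadm1 nuclei had 91.9 ± 5.90% *Grin2b*. Slc17a6-Nrgn nuclei held both, with 49.3 ± 1.57% *Grin2a* and 49.9 ± 1.97% *Grin2b*. Among *Grik* UMIs, *Grik2* made up 99.3 ± 0.448% in granule neurons, *Grik1* 70.2 ± 5.88% and *Grik4* 21.1 ± 2.28% in PCs, and *Grik3* 59.0 ± 14.1% in Pvalb-Nefh nuclei. Counts rise with the length of a gene where introns are counted, so shares do not order the genes within a label. Shares also include free RNA of granule neurons, which differed between labels. In Pvalb-Nefh nuclei *Grik2* made up 35.8 ± 14.2% of *Grik* UMIs but was under both scaled levels in all 6 mice. Levels per kb of gene span are given too, though counts were not shown to rise in proportion to span. On that scale granule neurons had 9.56 CPM per kb of *Grin2c* and 2.44 of *Grin2a*, the reverse of their order by UMIs, since *Grin2a* spans 428 kb and *Grin2c* 18.1 kb. Slc17a6-Nrgn nuclei had 1.61 CPM per kb of *Grin2a* and 1.52 of *Grin2b*. PCs had 11.2 CPM per kb of *Grin1*, 3.24 of *Grik1*, 0.900 of *Grik4* and 0.264 of *Grin2a*.

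**Figure D2:**
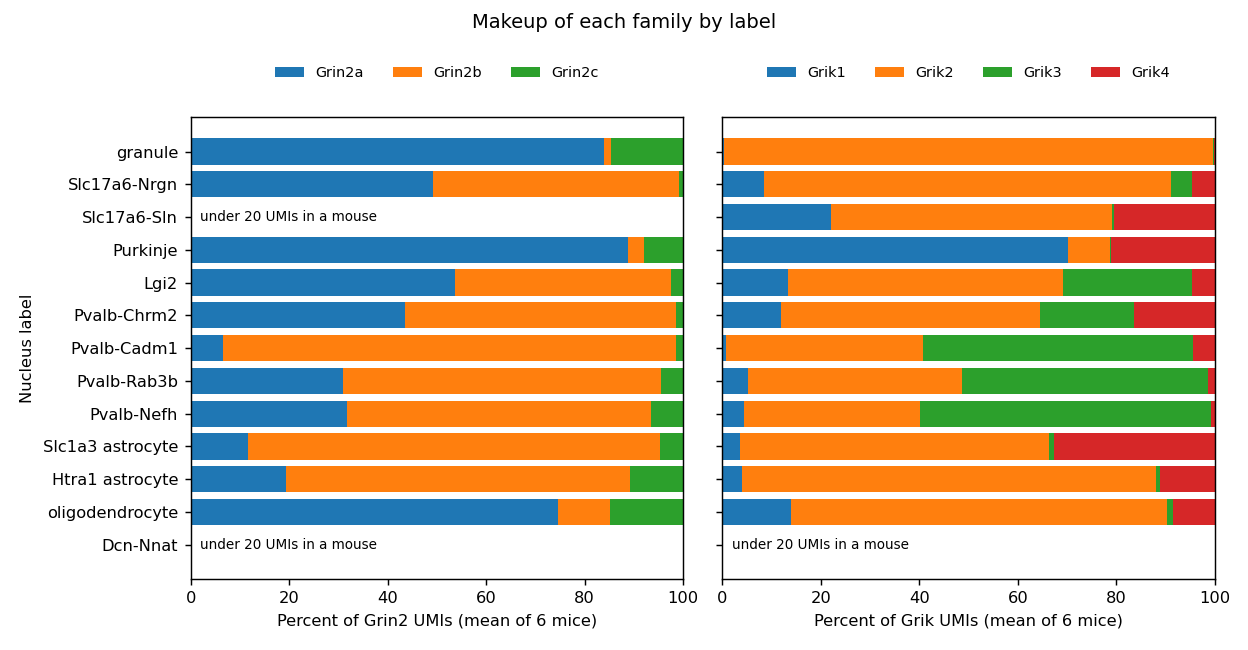
Share in percent of each subunit among the *Grin2* UMIs (left) and *Grik* UMIs (right) of a label, as the mean of 6 mice. *Grin2d* and *Grik5* are left out of these totals. The share of *Grik1* was highest in PCs, at 70.2%, and that of *Grik3* was highest on average in Pvalb-Nefh nuclei, at 59.0%. Shares are not corrected for gene length or for free RNA.

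OL had 1127 ± 183 CPM of *Grik2*. That label also held *Pdgfra* at 69.0 CPM and *Cspg4* at 32.0 CPM, genes of oligodendrocyte precursors, and was therefore split after its levels had been seen. The 65 nuclei with a *Pdgfra* or *Cspg4* UMI and no *Mog* UMI (5 to 18 per mouse) had 652 ± 185 CPM of *Grin3a*, against 11.3 ± 7.66 CPM in the 1179 nuclei with *Mog* and neither of the others, while 140 nuclei fell in neither set. The precursor type nuclei were higher in 6 of 6 mice for *Grin3a*, *Grik3* and *Grik4*, with *Grik3* at 139 against 8.65 CPM and *Grik4* at 438 against 92.6 CPM. *Grik2* was at 982 ± 322 and 1127 ± 178 CPM in the precursor and myelinating type. The *Gabra6*-scaled level of *Grik2* in the whole label was 678 CPM, and 5 of 6 mice were above it, but 1 of 6 was above the *Cbln3*-scaled level. *Gabra6* was at 44.7 ± 42.5 CPM in the precursor and 142 ± 58.5 CPM in the myelinating type. No scaled level was computed for either type alone.

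The genes whose pattern over the 13 labels was most like that of each subunit were named by Pearson's r of mean log2(CPM + 1) among 13702 genes, as a description, and the 3 closest genes of each had an r between 0.84 and 0.98. Among the NMDA receptor genes the highest r was with *Ccdc92b* for *Grin1* (0.98), *Kif26b* for *Grin2a* (0.98), *Gm44593* for *Grin2b* (0.97), *Gabra6* for *Grin2c* (0.95) and *Grin2b* for *Grin3a* (0.92). Among the kainate receptor genes it was with *9530059O14Rik* for *Grik1* (0.92), *Gm26543* for *Grik2* (0.96), *Ftl1-ps1* for *Grik3* (0.98) and *Sh3kbp1* for *Grik4* (0.91). *9530059O14Rik* was at 1208 CPM in PCs, its highest label. Outside granule neurons, mean *Grin2c* lay between 0.627 times (Dcn-Nnat) and 1.86 times (VA) its *Gabra6*-scaled level. The part of free RNA in its r with *Gabra6* was not tested.

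Whether the transgene, which is made in PCs, goes along with other levels of these subunits in PCs and in the cells around them was asked by comparing SCA1 with WT mice in each label. edgeR's quasi-likelihood test was run on the sums of each label over all its genes, with a term for genotype and one for batch (mouse 1 of each genotype against mice 2 and 3, inferred from library numbers), and p was adjusted by Benjamini-Hochberg. Of 117 pairs of a subunit and a label, 96 passed the filter on low counts. edgeR called 0 of them at an adjusted p of 0.05, DESeq2 called 1, and 4 had an unadjusted p under 0.05. Over all genes and labels edgeR called 0.00156%, which is 0% in PCs, 0.00566% in granule neurons, 0.00917% in OL and 0% in the other 10 labels. An unadjusted p under 0.05 in edgeR was found for 2392 of 128055 values over all genes and labels, and for 653 of the 9821 genes in PCs.

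In PCs, 6 of the 9 subunits passed the filter, and *Grin2b*, *Grin3a* and *Grik3* did not. *Grin2a* was at 77.5, 37.0 and 71.6 CPM in SCA1 mice 1, 2 and 3 and at 130, 107 and 253 CPM in WT mice 1, 2 and 3. Every SCA1 mouse lay below every WT mouse, which held in this direction for 2.57% of the genes tested in PCs, and 12% had every SCA1 mouse above. The fitted log2 fold change was −1.55 (SE 0.39, n = 3 and 3), with an unadjusted p of 0.00237 and an adjusted p of 0.259 in edgeR, so that it did not pass. DESeq2 gave an adjusted p of 0.0377 and called 0.672% of the genes in PCs. Within batch 1 the log2 ratio of CPM was −0.75, and within batch 2 it was −1.73. Without WT mouse 3 the fitted value was −0.999.

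The number of PC nuclei that *Grin2a* UMIs came from differed between mice. A UMI was found in 58.5%, 17.3% and 24.1% of the PC nuclei of SCA1 mice 1, 2 and 3 and in 63.2%, 29.3% and 41.4% of those of WT mice 1, 2 and 3. These shares were not thinned, and depth differed between the mice. After thinning to 1000 UMIs the share was 8.58 ± 8.80% over the 6 mice. In SCA1 mouse 3, 1 nucleus held 75 of 125 UMIs, and in WT mouse 3, 5 nuclei held 95, 71, 45, 39 and 20 of 282. The nucleus with 45 had only 4129 UMIs in all, which is 10899 CPM of *Grin2a*, and it was not the one left out below. With the nucleus of most *Grin2a* UMIs in each mouse left out, an alternative added after these values were seen, SCA1 mice had 39.34 ± 23.97 and WT mice 126 ± 48.0 CPM. The *Gabra6*-scaled level was 54.3, 30.3 and 12.3 CPM in the SCA1 mice and 91.9, 8.54 and 61.4 CPM in the WT mice, and the *Cbln3*-scaled level was 155, 80.9 and 44.6 CPM and 117, 53.5 and 122 CPM. SCA1 mice 1 and 2 were therefore under the *Cbln3*-scaled level. The nuclei with 5 or more *Grin2a* UMIs had more *Gabra6* than the other PC nuclei in 5 of 6 mice, at 44.2, 78.9 and 17.4 against 39.3, 30.2 and 3.11 CPM in the SCA1 mice and 123, 0 and 105 against 45.1, 7.69 and 7.25 CPM in the WT mice. *Gabra6* overlapped between the genotypes in PCs, and its part in the result was not tested.

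**Figure D3:**
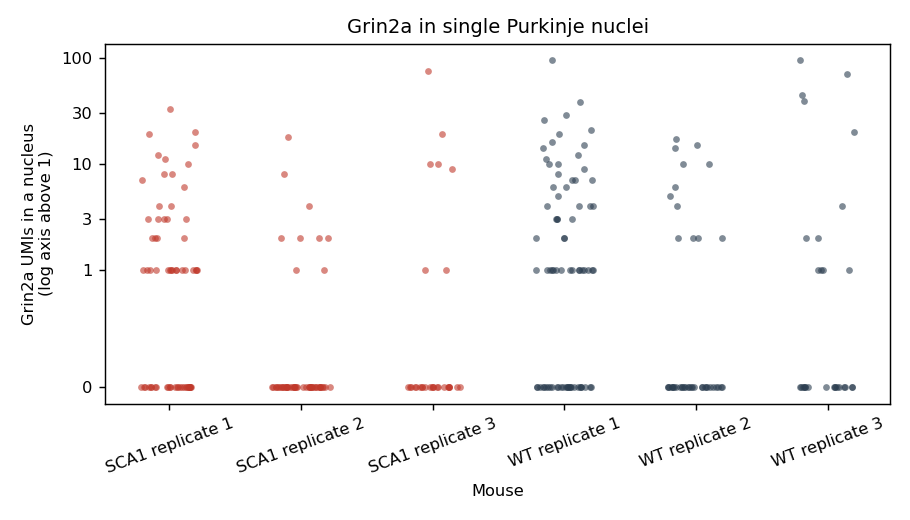
*Grin2a* UMIs in each PC nucleus (points, log axis above 1) for each mouse. Most nuclei of mice 2 and 3 of both genotypes hold none, and 5 of 29 nuclei in both SCA1 mouse 3 and WT mouse 3 hold 5 or more.

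*Grik1*, *Grik4* and *Grin1* in PCs overlapped between the genotypes. *Grik1* had 1244 ± 267 CPM in PCs of SCA1 mice and 1307 ± 251 CPM in those of WT mice, which overlapped (log2 fold change −0.26 with an SE of 0.25 and an edgeR adjusted p of 0.999). *Grik4* was at 353 ± 83.0 and 415 ± 50.2 CPM, which also overlapped (log2 fold change −0.41 with an SE of 0.25 and an edgeR adjusted p of 0.919). *Grin1* was at 346 ± 48.8 and 282 ± 46.0 CPM, with overlap and a log2 fold change of 0.11 (SE 0.19). These SEs leave room for changes of a size that this number of mice cannot show. Fitted values take in TMM factors and batch, while CPM and the overlap of mice in CPM do not, so their sizes can differ. With library size only in place of TMM, *Grin2a* in PCs was at −1.37 instead of −1.55.

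**Figure D4:**
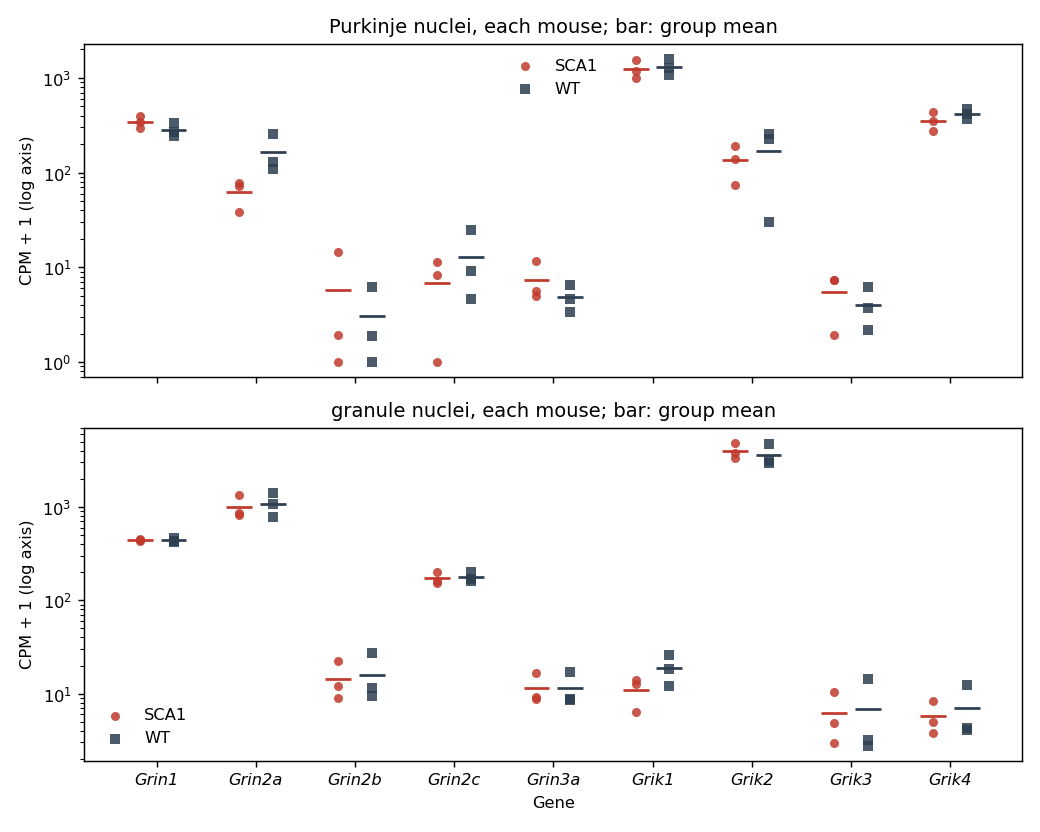
CPM + 1 on a log axis of each subunit in PCs (top) and granule neurons (bottom), with 1 point per mouse and a bar at the group mean. In PCs the genotypes are apart for *Grin2a* only, with SCA1 mice at 37.0 to 77.5 CPM and WT mice at 107 to 253 CPM.

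In SCA1 mice, the PC nuclei with a human *ATXN1* UMI (10, 10 and 11 nuclei) had 66.1, 59.6 and 27.4 CPM of *Grin2a*, and those without one had 79.8, 26.8 and 101 CPM. Neither kind was the higher one in all 3 mice. *Grik1* was lower in the nuclei with the UMI in each of the 3 mice, at 822, 1075 and 1252 CPM against 1042, 1251 and 1716 CPM. *Grik2*, which was under its *Cbln3*-scaled level in PCs of all 6 mice, had the same order, at 99.2, 119 and 64.9 CPM against 208, 149 and 78.8 CPM. *Grin1* and *Grik4* had no common order, with *Grin1* lower in mouse 2 and *Grik4* lower in mice 2 and 3. The median depth in SCA1 mouse 2 was 34274.5 UMIs with and 7287.5 UMIs without the human *ATXN1* UMI, and these values are given without a test.

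Outside PCs, 3 values had an unadjusted p under 0.05, and each had an adjusted p of 1 in edgeR. *Grik1* in VA was at 9.12, 15.6 and 17.9 CPM in the SCA1 mice and 26.3, 66.1 and 18.8 CPM in the WT mice, without overlap, an order that 2.2% of the genes tested in VA had (log2 fold change −1.39, SE 0.40). *Grik1* in granule neurons was at 9.99 ± 4.10 against 17.9 ± 7.07 CPM, with overlap (−0.90, SE 0.34). *Grik2* in Pvalb-Cadm1 nuclei was at 447 CPM in SCA1 and 278 CPM in WT mice, with overlap (0.69, SE 0.28), against a *Gabra6*-scaled level of 388 CPM and a *Cbln3*-scaled level of 916 CPM, which 3 and 0 of 6 mice exceeded. Over all labels, SCA1 mice were all below WT mice for 5 of the 96 values and all above for 4, while 2.23% and 3.32% of all genes tested had these orders.

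**Figure D5:**
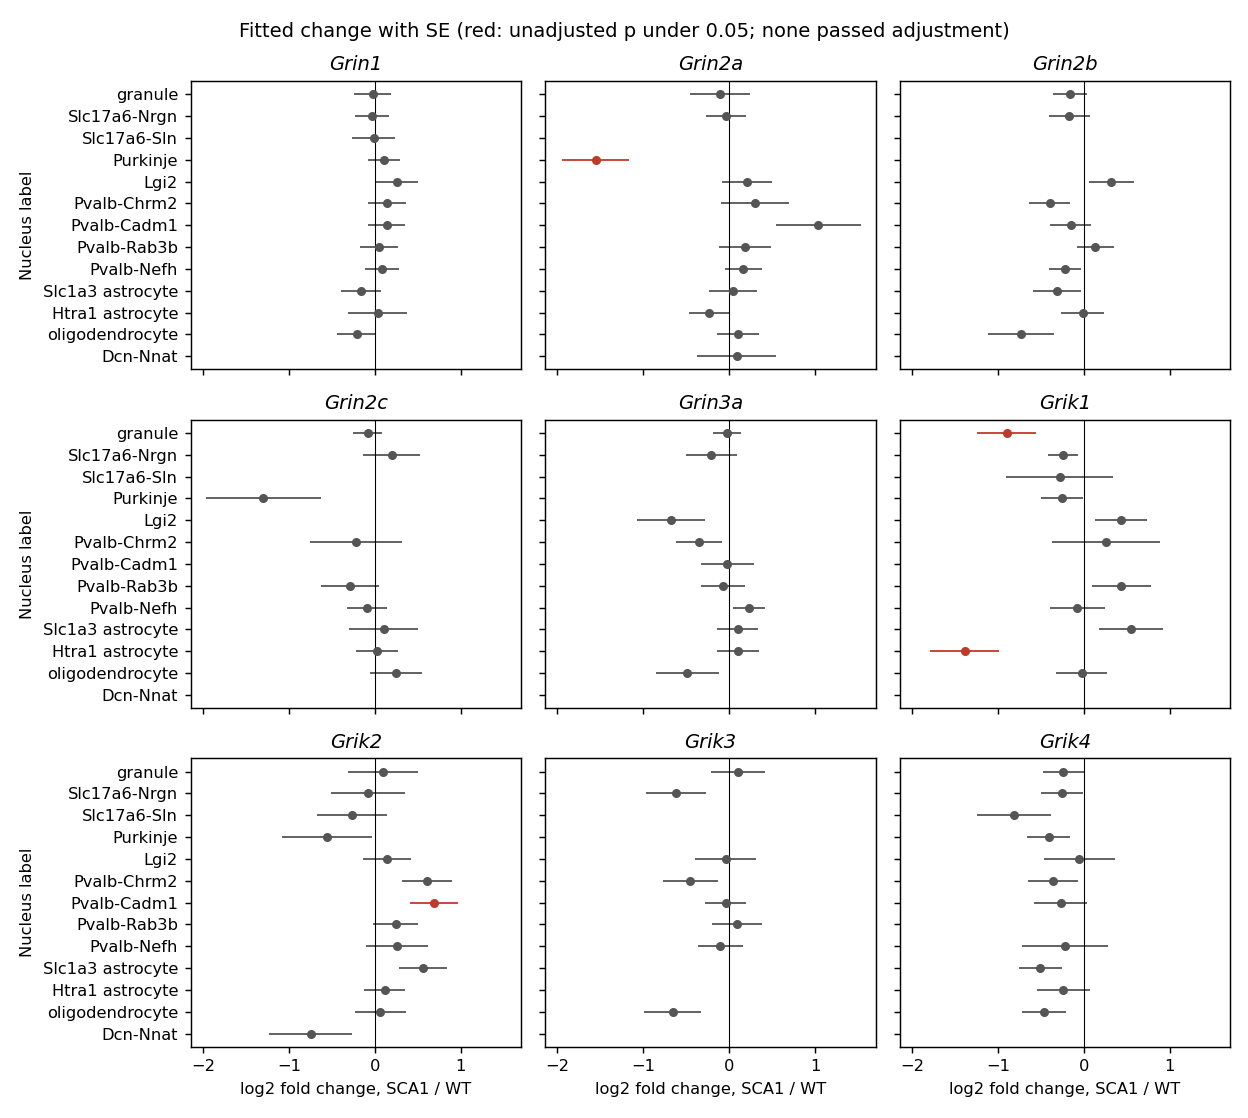
Fitted log2 fold change of SCA1 against WT (points) with its SE (lines) for each subunit and label that passed the filter, red where the unadjusted p was under 0.05. *Grin2a* in PCs lies at −1.55, and no value passed the adjusted threshold.

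An interaction term, in a model with a term for each mouse, tested whether the change in a label differed from the one in granule neurons. The filter here was on the sums of both labels together, so the 21 pairs too low for their own label's filter were tested too. Of 108 values, edgeR called 0, DESeq2 1, and 6 had an unadjusted p under 0.05. Over all genes and the 12 labels edgeR called 0.00364%, and 4376 of 192146 values had an unadjusted p under 0.05. *Grin2a* in PCs differed from granule neurons by −1.45 on the log2 scale (SE 0.32), with an adjusted p of 0.518 in edgeR and 0.0346 in DESeq2, which called 0.187% of the genes in this comparison. In granule neurons *Grin2a* was at 1005 ± 292 CPM in SCA1 and 1085 ± 315 CPM in WT mice.

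The makeup of the families was compared for 81 shares of 12 labels, with *Grin2* and *Grik* UMIs as defined above, without *Grin2d* and *Grik5*. Unlike the edgeR test within each label, this comparison had no term for batch. With 3 mice of each genotype, the exact permutation test (two-sided) cannot give a p under 0.1. This p was reached by 7 of the 81 shares, and after Benjamini-Hochberg adjustment over the 81 the smallest p was 0.972. Since 0.1 is already above the adjusted p threshold, no share could have passed, however large its difference. The test therefore cannot decide whether the makeup differed between the genotypes, and the shares below are given as a description. In Pvalb-Chrm2 nuclei *Grik2* made up 60.6 ± 8.56% of *Grik* UMIs in the SCA1 mice against 44.9 ± 5.93% in the WT mice, and *Grik4* 13.4 ± 0.817% and 19.5 ± 1.58%. The *Grik2* share there differed by 5.66 points in batch 1 and 20.7 points in batch 2. *Grik2* was at 979 CPM in this label, against a *Gabra6*-scaled level of 284 CPM and a *Cbln3*-scaled level of 541 CPM. The part of free RNA in its shares was not tested, and 38 of its 263 nuclei lay in a cluster of that label. In OL *Grik4* made up 7.15 ± 0.424% and 9.78 ± 0.419%, and *Grik3* 1.01 ± 0.172% and 1.61 ± 0.0717%. Both genes were higher in the precursor type nuclei of that label, whose part in these shares was not tested. In VA *Grik1* made up 2.19 ± 0.673% and 5.83 ± 3.82%, and *Grik2* 86.9 ± 2.58% and 81.4 ± 1.56%. *Grik2* in VA was over its *Gabra6*-scaled level in 3 of 6 mice and over its *Cbln3*-scaled level in 0. In Slc17a6-Nrgn nuclei *Grin2a* made up 50.3 ± 0.702% of *Grin2* UMIs in the SCA1 mice and 48.3 ± 1.57% in the WT mice. *Grik1* in PCs made up 71.3 ± 5.59% against 69.1 ± 7.17% (exact permutation p = 0.7).

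Of 30 genes of the pathway around these receptors, 29 were in the tables, among them further subunits, the auxiliary subunits *Neto1* and *Neto2*, the scaffolds of the *Dlg*, *Dlgap*, *Shank* and *Homer* families, and kinases and exchange factors downstream. In PCs 23 passed the filter, and edgeR and DESeq2 called 0, with 1 unadjusted p under 0.05. Over the 13 labels 294 values of the list passed the filter and both tools called 0, with 7 unadjusted p under 0.05 among those higher and 4 among those lower in SCA1 mice. *Shank2*, a postsynaptic scaffold, had 1333 ± 152 CPM in PCs of SCA1 mice against 1828 ± 140 CPM, and no SCA1 mouse reached the lowest WT mouse (log2 fold change −0.63, SE 0.24, edgeR adjusted p = 0.597). *Dlgap4*, which links such scaffolds, was at 341 and 431 CPM in the same order (−0.51, SE 0.24, edgeR adjusted p = 0.757). *Dlgap1*, *Dlgap2* and *Srr*, which codes for serine racemase, the enzyme that makes the NMDA receptor co-agonist D-serine, had all SCA1 mice above all WT mice, with fitted values of 0.12, 0.64 and 0.39 that did not pass. These are 3 of the 23 genes, beside 12% of all genes tested in PCs with this order, and *Shank2* and *Dlgap4* are 2 of the 23, beside 2.57% with the opposite one. *Rasgrf2*, an exchange factor for Ras, also had all SCA1 mice above all WT mice, at 4.74 and 1.22 CPM, but was too low for the filter.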

How the data were processed

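The authors deposited, for each mouse, UMI counts per gene and nucleus, which are whole numbers that were not normalized, and a cluster number and SingleR label per nucleus. CellRanger had aligned the reads to mm10, to which human *ATXN1* had been added, with intron reads counted, and DIEM had taken out debris. Counting introns favors long genes, and the debris step left shallowest nuclei of 3890 and 3932 UMIs in SCA1 mouse 1 and WT mouse 1 but 1000 to 1739 in the other mice. The submitters' processing notes name Cell Ranger 4.0.0, 5.0.1 and 6.0.1, R 4.1.0 and Seurat 4.0.4. Batch was inferred from library numbers in the labels, with mouse 1 of each genotype in batch 1.

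Counts were summed per mouse and label for the 13 labels with at least 10 nuclei in every mouse, and tested with edgeR 4.0.16 (R 4.3.3) with terms for genotype and batch, TMM normalization and a filter on low counts (filterByExpr, at least 10 counts, 15 in total), at an adjusted p threshold of 0.05. P-values set a difference between the genotypes against the spread between mice. Scripts were tested on simulated data. No doublet caller was run, and intervals of shares were not computed. Shares of nuclei were thinned to 1000 UMIs unless given as before thinning or not thinned. Makeup needed 20 UMIs of a family in every mouse. Gene positions were taken by symbol from the GENCODE annotation of GRCm38, which is mm10. Named were the 9 members, for each the 3 genes of most similar pattern (minimum mean of 10 CPM in a label), and of the pathway list those past the threshold or not overlapping in PCs. The members and lists were chosen with earlier results of these data known. Alternatives were DESeq2 1.42.0, limma-trend (limma 3.58.1, prior count 2), RLE factors, library size only, no filter, no batch term, the replicate block, nuclei whose label was also the most frequent of their cluster, nuclei of at least 3000 UMIs, and each mouse left out. Python 3.11.15, numpy 2.4.6, pandas 2.3.3, scipy 1.17.1 and matplotlib 3.10.9 were used.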

Additional observations from a re-analysis of the deposited data

How the results depend on the processing

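Of 96 fitted values of a subunit in a label, SCA1 against WT, *Grin2a* in PCs was the one that passed the threshold under any alternative. The count of subunits called in PCs was 0 as reported and 1 with DESeq2, with no filter on low counts and with the replicate block in place of batch. *Grin2a* kept its direction under all of these, from −1.91 to −0.999 on the log2 scale with a mouse left out, and its adjusted p ranged from 2.15e-06 (no filter) to 0.786 (without SCA1 mouse 1). The replicate block gave −1.51 and an adjusted p of 0.00792 in edgeR. The replicate numbers were not shown to pair the mice: the correlation of deviations was over 0.1 for every pair in 6 of 13 labels, and for replicate 2 in PCs it was 0.067. The genes called in PCs were 0 as reported, 66 with DESeq2, 223 with no filter, 172 with the replicate block, 8 with RLE factors and 0 to 6 with a mouse left out. The cause was not tested.

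For the difference from granule neurons, the count of subunits called was 0 as reported. In PCs it was 1 with label by batch added, with no filter and with DESeq2 (*Grin2a*). In Lgi2 nuclei it was 1 with no filter and 0 to 1 with a mouse left out (*Grik1*). In Pvalb-Cadm1 nuclei it was 1 with label by batch added (*Grin2a*) and 0 to 2 with a mouse left out, and in Pvalb-Chrm2 nuclei 0 to 1. *Grik3* in Pvalb-Cadm1 nuclei was at 0.03 as reported and not called, ranged from −1.11 to 0.67 with a mouse left out, and was called only at −1.11, without WT mouse 1. Of 1398 and 1134 alternative values of single subunits, 112 and 200 had the other sign.

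Of the 9 subunits, the label with the highest level was the reported one for 9, and for 8 under TMM over all sums, label and cluster the same, and 3 of the 6 fits with a mouse left out, with *Grin1* the exception. No Pvalb-Rab3b nucleus remained where label and cluster had to be the same, and levels could be had for 63 of 117 pairs there. TMM over all sums moved 5 of 117 levels by over 1 SD, *Grik1*, *Grik4* and *Grin1* in PCs from 1276, 384 and 314 CPM to 1899, 570 and 453, *Grin1* in granule neurons from 441 to 462 and *Grin2a* in Slc17a6-Nrgn nuclei from 689 to 717, and PCs were then no longer the lowest neuronal label for *Grin1*. All 117 shares of nuclei moved by over 1 SD when all UMIs were used, since deeper nuclei show more. With 29 to 76 PC nuclei per mouse, low subunits there rest on few UMIs.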
